A study of Mus musculus with 3 samples.

Results

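The glutathione S-transferases (GST), UDP-glucuronosyltransferases (UGT) and cytosolic sulphotransferases (SULT) of the mouse kidney are described here across 3 arrays. Members were all genes of the array annotation with a Gst class, Ugt or Sult symbol followed by a number, read through probe sets that carry 1 gene symbol. This gave 46 genes, from 47 of 35556 probe sets, among 19938 single-symbol genes in all. They were 19 GST, 11 UGT and 16 SULT genes. Expression was measured with Affymetrix Mouse Gene 1.0 ST arrays in kidneys of female CBL/6 mice aged 8 to 10 weeks. The first array came from mice given NTS and PGE2: nephrotoxic serum, a sheep antiserum that induces an immune nephritis, once at 13.5 ug per g of body weight, then prostaglandin E2 at 5 ug per g daily from day 2. A second array (NTS) came from mice given the serum alone, and the third (control) from non-treated mice. The treated mice were killed on day 7, and the labels record no vehicle for either agent and do not say whether an array held RNA of 1 animal or of several.

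Conjugating enzymes attach a soluble group to reactive or fat-soluble compounds so that they can be exported. GST enzymes use glutathione, UGT enzymes transfer a sugar from a UDP-sugar, most often glucuronic acid, and SULT enzymes transfer sulphate from the donor PAPS. In the kidney many of these enzymes are found in the proximal tubule, which takes up and secretes drugs and metabolites and degrades glutathione conjugates to mercapturates.

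Values are the authors' log2 expression values. Each group had 1 array, so differences could not be checked against replicates, no test was run, and precision is limited by the small number of arrays. The size limit was a log2 difference of 1 (2-fold), applied to genes whose brighter value in a pair was no lower than the probe set median of its array. Genes read by 2 bright probe sets gave a scale of technical spread: over 459 such genes the SD of one probe set's log2 difference was 0.20 between NTS and control, 0.21 between NTS/PGE2 and NTS, and 0.125 between NTS/PGE2 and control. It leaves out the spread between animals. The kidney label fitted its markers, with the phosphate transporter Slc34a1 at 13.55, 12.21 and 13.64 and uromodulin (Umod) at 13.74, 13.64 and 13.70 on the NTS/PGE2, NTS and control arrays. The control array also carried fat transcripts: 11 of 13 measured adipose markers were at least 2-fold lower in NTS kidney than in control kidney, and 10 of 13 were at least 2-fold lower in NTS/PGE2 kidney than in control kidney.

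Of the 46 genes, 26 had a mean over the 3 arrays at or above that of the median gene, made up of 15 GST, 7 UGT and 4 SULT genes. Another 13 lay below the 25th percentile of every array, and 12 genes had exactly equal values on all 3 arrays, beside 29.1% of all genes; a summary by median polish often gives equal values, so equal values say little about a gene's true level. The equal genes were Gstt4, Ugt2b1, Ugt2b35, Ugt2b36, Sult1b1, Sult1c1, Sult2a3, Sult2a6, Sult3a1, Sult3a2, Sult5a1 and Sult6b2. The 8 members past 2-fold in any comparison were all GST or UGT genes.

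**Figure D1:**
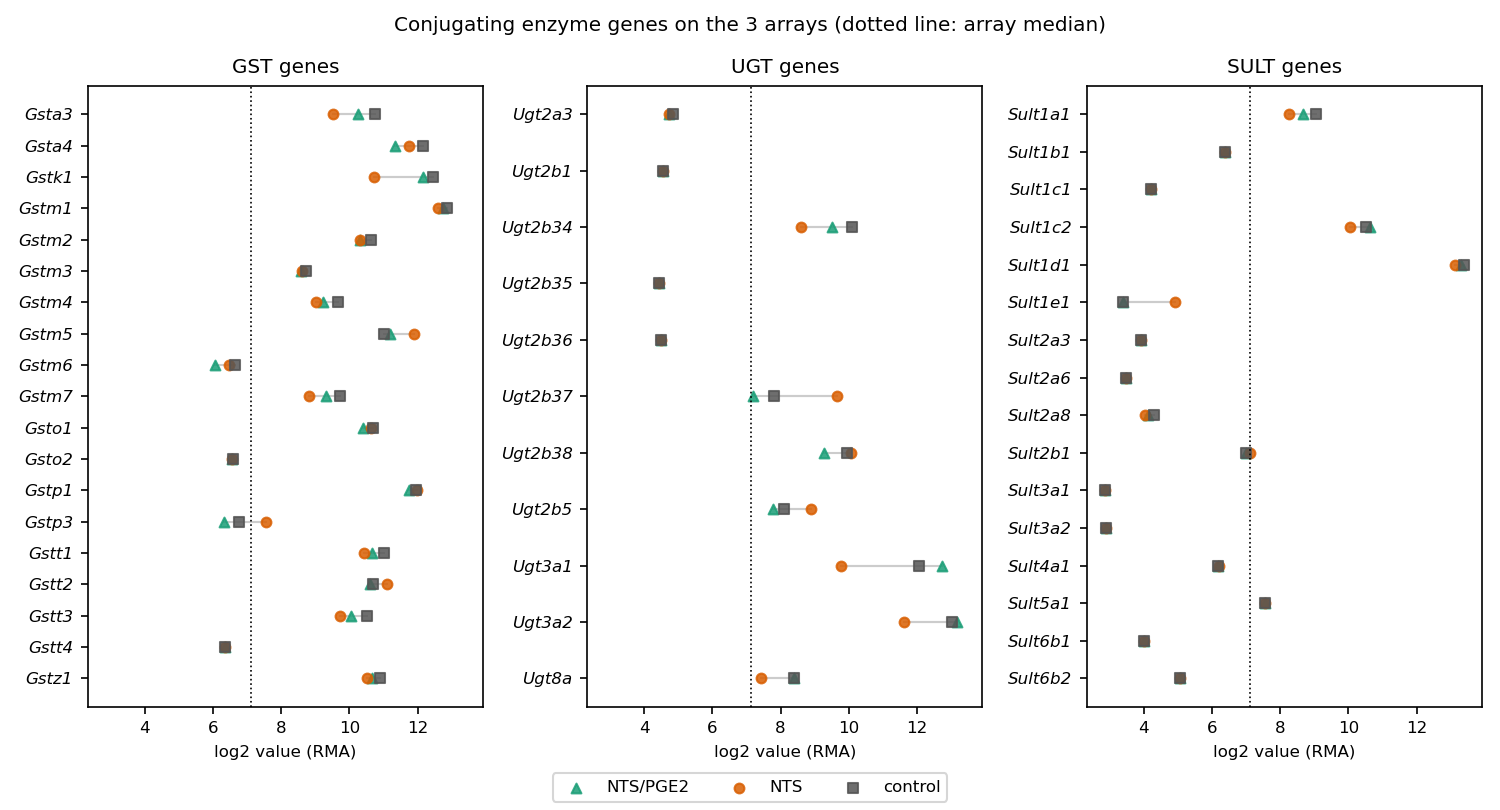
Log2 values (x axis) of all 46 genes in NTS/PGE2 (triangles), NTS (circles) and control (squares) kidney, 1 row per gene; the dotted line is the array median. Ugt3a1 (9.76 in NTS kidney) and Ugt2b37 (9.67 in NTS kidney) show the widest gaps between arrays, in opposite directions.

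Nephrotoxic serum was compared with no treatment first. Genes of the UGT3 family and the kappa-class GST were lower in NTS kidney, and Ugt2b37 was higher. Of the 16 SULT genes none passed 2-fold, 12 being dimmer than the median gene, and the 4 brighter ones had a median log2 difference of -0.38. Of the 46 genes, 28 passed the filter on dim values. At least 2-fold lower in NTS kidney were 5 genes, beside 5.42% of all genes tested, and 1 was at least 2-fold higher, beside 2.70%. The median log2 difference over all 46 genes was -0.01, and 0 over all 19938 genes. Among the 26 brighter genes 19 had a negative difference, with a median of -0.40. Of all brighter genes 41.8% had one, and their median was 0. A positive one was held by 6 of the 26, beside 40.3% of all brighter genes. Values were exactly equal for 1 of the 26 and for 1790 of 9969 brighter genes. These ties lower both shares of all brighter genes. In whole kidney RNA, fewer cells of a type and less RNA per cell cannot be told apart. Of 24 proximal tubule markers, 15 were at least 2-fold lower in NTS kidney and 0 higher, with a median log2 difference of -1.32. The fall was not limited to that segment. Of 11 loop and distal tubule markers 6 were at least 2-fold lower and 0 higher, with a median of -1.03. Of 12 collecting duct markers 4 were lower and 0 higher, with a median of -0.55. Of 15 tubular injury markers, 11 were at least 2-fold higher and 0 lower, and of 12 endothelium markers 7 were lower. The part of these shifts in the members' differences was not tested.

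With a 1.5-fold limit, 10 genes were lower in NTS kidney, beside 11.9% of all genes, and 4 higher, beside 7.62%. The added lower genes were Ugt8a, Gstm7, Sult1a1, Gstt3 and Gstm4, and the added higher genes were Gstm5, Gstp3 and Ugt2b5. Nearest to the 2-fold limit, Gsta3 lay inside it with a log2 difference of -1.24 and Ugt8a outside it with -0.95.

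The second comparison set daily PGE2 after the serum against the serum alone. It shares the NTS array with the first, so a value that deviates on that array alone enters both with opposite sign. Ugt3a1, Ugt3a2 and Gstk1 were at least 2-fold higher in NTS/PGE2 kidney, which is 3 of 46 genes (28 passing the filter) beside 4.15% of all genes tested. Ugt2b37, Gstp3 and Ugt2b5 were at least 2-fold lower, 3 genes beside 3.28%. Gstp3 passed the filter only through its NTS value, and with the filter at the 75th percentile 2 genes were lower. Of the 26 brighter genes 15 had a positive difference, beside 40.3% of all brighter genes, with a median of 0.19. A negative one was held by 9, beside 42.0%. Values were exactly equal for 2 of the 26 and for 1773 of 9969 brighter genes, and these ties lower the shares of all brighter genes. At 1.5-fold, 7 genes were higher, beside 9.98%, and 5 lower, beside 8.93%. The 4 added higher genes were Ugt8a, Ugt2b34, Gsta3 and Sult1c2, and the 2 added lower ones Ugt2b38 and Gstm5. Just inside the 2-fold limit lay Ugt2b5 at -1.12 and just outside it Ugt8a at 0.95. Proximal tubule markers had a median log2 difference of 1.35, with 16 of 24 at least 2-fold higher in NTS/PGE2 kidney. Loop and distal tubule markers had one of 1.10, with 6 of 11 at least 2-fold higher. Collecting duct markers had one of 0.57, with 4 of 12, and endothelium markers one of 1.12, with 7 of 12. Of 15 injury markers, 14 were at least 2-fold lower. The part of these shifts in the members' differences was not tested.

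The third comparison set the PGE2-treated nephritic kidney against the untreated one. It shares the control array with the first, so a value that deviates on that array alone enters both with the same sign. No member differed 2-fold: 0 genes were higher, beside 0.0607% of all genes tested, and 0 lower, beside 0.659%. At 1.5-fold, 1 gene was higher (Ugt3a1), beside 0.555%, and 4 were lower (Gsta4, Ugt2b38, Ugt2b37 and Ugt2b34), beside 2.15%. Small negative differences were nonetheless frequent. Of the 26 brighter genes 21 were lower in NTS/PGE2 kidney than in control kidney, with a median log2 difference of -0.30, and 4 were higher. Of all brighter genes 42.8% were lower and 30.2% higher, and their median was 0. Values were exactly equal for 1 of the 26 and for 2688 of 9969 brighter genes, and these ties lower the shares of all brighter genes. Of the 15 brighter GST genes 14 were lower, with differences between -0.81 and 0.16. The largest was Gsta4 at -0.81. Proximal tubule markers had a median log2 difference of 0.01 in this comparison, with 0 of 24 past 2-fold, adipose markers one of -3.10 and urothelium markers one of -0.76, with 4 of 11 at least 2-fold lower. Markers with smaller median differences were those of macrophages at -0.36, with 9 of 11 lower, tubular injury at -0.24, with 12 of 15 lower and 4 past 2-fold, and endothelium at -0.18, with 11 of 12 lower. The part of these shifts in the GST differences was not tested.

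**Figure D2:**
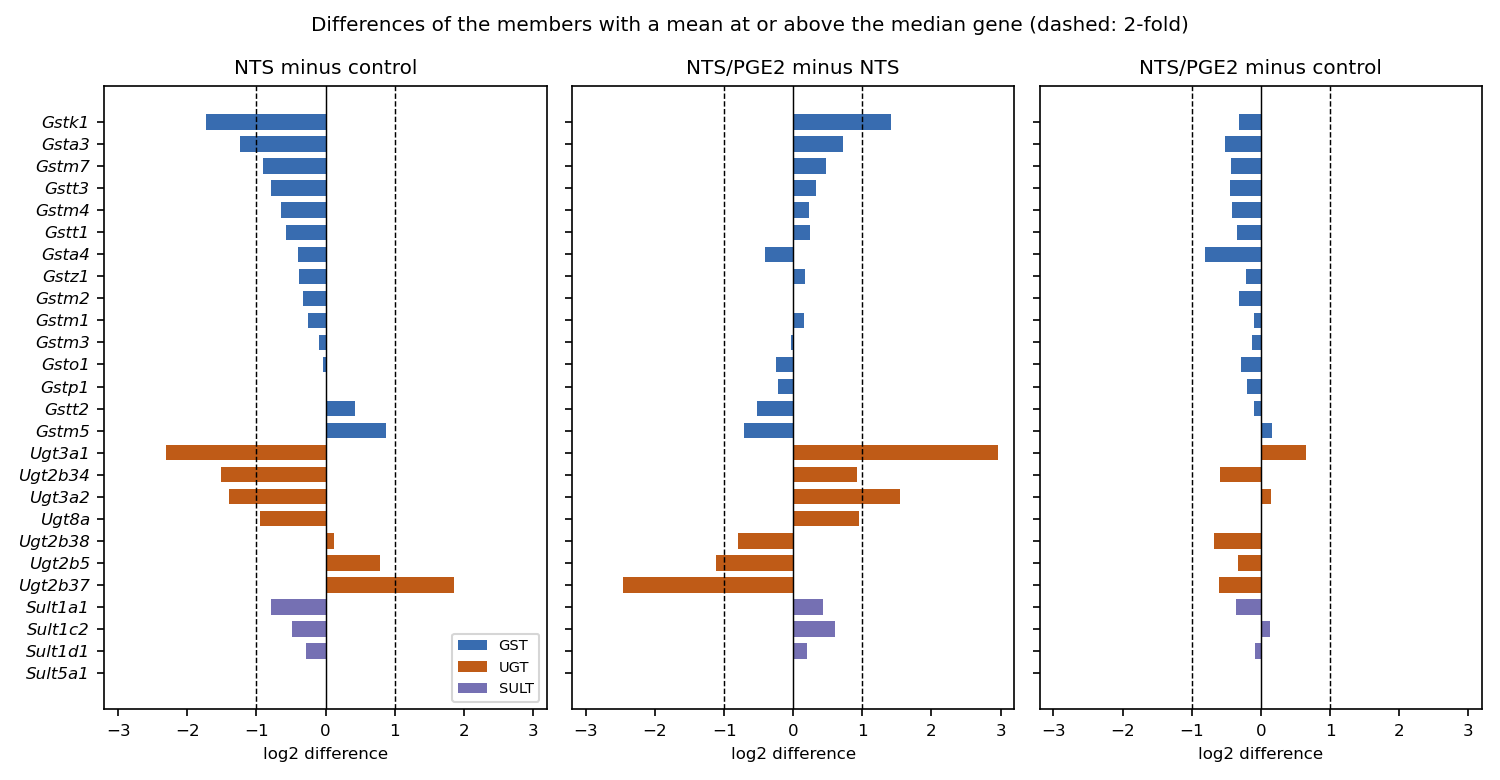
Log2 differences (x axis) of the 26 genes with a mean at or above the median gene, in 3 panels for NTS minus control, NTS/PGE2 minus NTS and NTS/PGE2 minus control; bars are coloured by family and dashed lines mark 2-fold. In the third panel no bar reaches 2-fold and 21 of 26 point to the left.

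The alpha class of GST was read through 2 single-symbol genes. Gsta3, a transferase of electrophiles that in mice protects against aflatoxin, had log2 values of 10.24 in NTS/PGE2 kidney, 9.52 in NTS kidney and 10.76 in control kidney. It was lowest in NTS kidney, 2.37-fold below control, and the NTS/PGE2 array stood between. Gsta4, which conjugates the lipid peroxidation product hydroxynonenal, read 11.34, 11.75 and 12.15 on the same arrays in that order. Its NTS/PGE2 value was the lowest of the 3, 1.75-fold below control, so Gsta4 did not share the order of Gsta3.

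Of the 8 members past 2-fold, 7 had a window in RefSeq's promoter table and Ugt3a2 did not. Among those 7 windows, that of Gsta3 alone held the core of the antioxidant response element, the site bound by the stress factor NRF2. The element was searched as TGACNNNGC, and the core of the site of the kidney factor HNF1 as GTTAAT, on both strands of windows from 250 bases before to 50 after each gene's start (GRCm38.p6). In the Gsta3 window, chr1:21240335-21240634, plus strand, capitals mark an HNF1 core, read on the opposite strand, followed by the antioxidant element core:
Gsta3: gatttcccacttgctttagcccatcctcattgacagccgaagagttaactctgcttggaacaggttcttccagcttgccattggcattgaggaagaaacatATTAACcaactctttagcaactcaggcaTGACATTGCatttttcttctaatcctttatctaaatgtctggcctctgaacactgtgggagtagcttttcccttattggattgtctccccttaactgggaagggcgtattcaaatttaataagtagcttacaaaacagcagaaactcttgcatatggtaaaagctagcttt

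Over all 32851 windows, 12.4% held TGACNNNGC, and of 53 windows of 42 member genes 3 did, those of Gsta3, Gstm5 and Gstm7. GTTAAT stood in 8 of the 53 member windows and in 7.1% of all windows, and a core of the HNF4 type, CAAAGTC, in 3 of 53 and in 4.44%. The genes with GTTAAT were Gsta3, Ugt3a1, Sult1a1, Sult1d1, Sult2a3, Sult2a6, Sult3a2 and Ugt2a3. Of these, only Gsta3 and Ugt3a1 were past 2-fold, and Sult2a3, Sult2a6, Sult3a2 and Ugt2a3 lay below the 25th percentile on every array. The 3 genes with the antioxidant core did not share a direction: in NTS kidney Gstm5 was higher than control by a log2 difference of 0.87, while Gstm7 differed by -0.91 and Gsta3 by -1.24. In the windows printed here no match overlapped another. A match is a description of letters and shows no binding.

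The mu class, of cytosolic transferases that conjugate many electrophiles, was measured through 7 genes that lie next to each other on chromosome 3 with no other protein-coding gene between them. Between NTS and control, Gstm5 had a positive difference and the other 6 had negative ones. Its log2 values were 11.18 in NTS/PGE2 kidney, 11.89 in NTS kidney and 11.02 in control kidney. It was highest in NTS kidney, 1.83-fold above control, and near control in NTS/PGE2 kidney. The adjacent Gstm7 read 9.30, 8.83 and 9.74 on these arrays. It was lowest in NTS kidney, 1.88-fold below control.

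Gstm4 read 9.24 in NTS/PGE2 kidney, 9.02 in NTS kidney and 9.66 in control kidney, again lowest in NTS kidney. Gstm1 read 12.75, 12.59 and 12.85 and Gstm2 10.32, 10.32 and 10.64 on the same arrays, with NTS against control differences of -0.26 and -0.32. Gstm3 was the sole member with 2 probe sets, and these disagreed in brightness, at 10.30, 10.27 and 10.47 in one and 6.88, 6.98 and 6.97 in the other. Their average differed by -0.09 between NTS and control. Gstm6 was dim, at 6.07, 6.46 and 6.64. Mu-class genes are close in sequence, so a probe set of one may also read another, which was not tested.

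Gstk1, the kappa-class enzyme of mitochondria and peroxisomes, had the largest difference of the GST genes. It read 12.15 in NTS/PGE2 kidney, 10.73 in NTS kidney and 12.47 in control kidney. The NTS array alone was low, 3.33-fold below control, and the NTS/PGE2 value was 2.68-fold above the NTS value. In the first comparison 199 of 11778 genes that passed the filter had a difference as low or lower. Gstz1, which isomerises maleylacetoacetate in tyrosine breakdown, read 10.68, 10.51 and 10.90 on the NTS/PGE2, NTS and control arrays. Gsto1, an omega-class enzyme that reduces dehydroascorbate, read 10.39, 10.64 and 10.68. Both stayed within a log2 difference of 0.39 between any pair of arrays. Gsto2 was dim at 6.57, 6.57 and 6.58.

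In the pi class, Gstp1, an abundant transferase of epithelia, read 11.75 in NTS/PGE2 kidney, 11.97 in NTS kidney and 11.95 in control kidney. Those values were close together. Gstp3, of the same class, read 6.33, 7.57 and 6.77 on these arrays. It was above the array median in NTS kidney only, where it was 1.74-fold above control and 2.36-fold above the NTS/PGE2 value. Of the theta class, Gstt1 read 10.67, 10.43 and 11.01 and Gstt3 10.06, 9.73 and 10.51 on the NTS/PGE2, NTS and control arrays. Both were lowest in NTS kidney, with differences from control of -0.58 and -0.78. Gstt2 went the other way, at 10.60, 11.11 and 10.69, and was highest in NTS kidney.

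The UGT genes held the widest differences. Ugt3a1 and Ugt3a2 encode enzymes of a small family whose human members use N-acetylglucosamine or glucose in place of glucuronic acid. Ugt3a1 read 12.72 in NTS/PGE2 kidney, 9.76 in NTS kidney and 12.07 in control kidney. It was 4.95-fold lower in NTS kidney than in control kidney, and 7.78-fold higher in NTS/PGE2 kidney than in NTS kidney. Ranked by difference, Ugt3a1 was among the 84 lowest of 11778 genes in the first comparison and among the 21 highest of 11699 in the second. Its NTS/PGE2 value was also 1.57-fold above control, the largest positive difference of any member in the third comparison.

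Ugt3a2 read 13.16 in NTS/PGE2 kidney, 11.61 in NTS kidney and 13.01 in control kidney. Its NTS value was 2.64-fold below control, its NTS/PGE2 value was 2.93-fold above NTS, and it ended 1.11-fold above control. Some probe sets of the array carry 2 UGT3 symbols, so the set of Ugt3a1 may also read Ugt3a2 or the reverse, which was not tested. Ugt8a, the ceramide galactosyltransferase that makes the galactolipids of myelin and kidney, read 8.38, 7.43 and 8.38 on these arrays. It was low in NTS kidney alone, by a log2 difference of -0.95 from control.

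An HNF1 core, which 8 member genes held, also stood in the window of Ugt3a1. It is marked in capitals and read on the opposite strand, at chr15:9279579-9279878 (GRCm38.p6, plus strand):
Ugt3a1: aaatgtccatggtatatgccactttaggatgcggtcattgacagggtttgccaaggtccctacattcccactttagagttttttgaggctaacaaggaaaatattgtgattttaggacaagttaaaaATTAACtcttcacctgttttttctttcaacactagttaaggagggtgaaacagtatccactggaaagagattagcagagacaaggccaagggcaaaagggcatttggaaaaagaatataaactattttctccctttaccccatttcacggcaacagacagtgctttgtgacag

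The UGT2 family encodes enzymes that glucuronidate steroids, bile acids and drugs. Its 8 measured genes lie in a run of 13 protein-coding genes on chromosome 5 that also holds Sult1b1, Sult1d1 and Sult1e1. Genes of this run differed in opposite directions. Ugt2b37 read 7.20 in NTS/PGE2 kidney, 9.67 in NTS kidney and 7.81 in control kidney. It was high in NTS kidney alone, 3.62-fold above control and 5.51-fold above NTS/PGE2. In the second comparison only 34 of 11699 genes had a difference as low or lower.

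Ugt2b5, the gene beside it, read 7.77 in NTS/PGE2 kidney, 8.89 in NTS kidney and 8.10 in control kidney. The NTS array was again the highest, by 1.73-fold over control and by 2.17-fold over NTS/PGE2. Ugt2b38 read 9.27, 10.07 and 9.95, so the NTS and control arrays were close and the NTS/PGE2 array was lowest. Ugt2b34, the first gene of the run, read 9.50, 8.59 and 10.09 on the NTS/PGE2, NTS and control arrays. It was lowest in NTS kidney, 2.85-fold below control. Ugt2a3, Ugt2b1, Ugt2b35 and Ugt2b36 lay below the 25th percentile on every array.

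**Figure D3:**
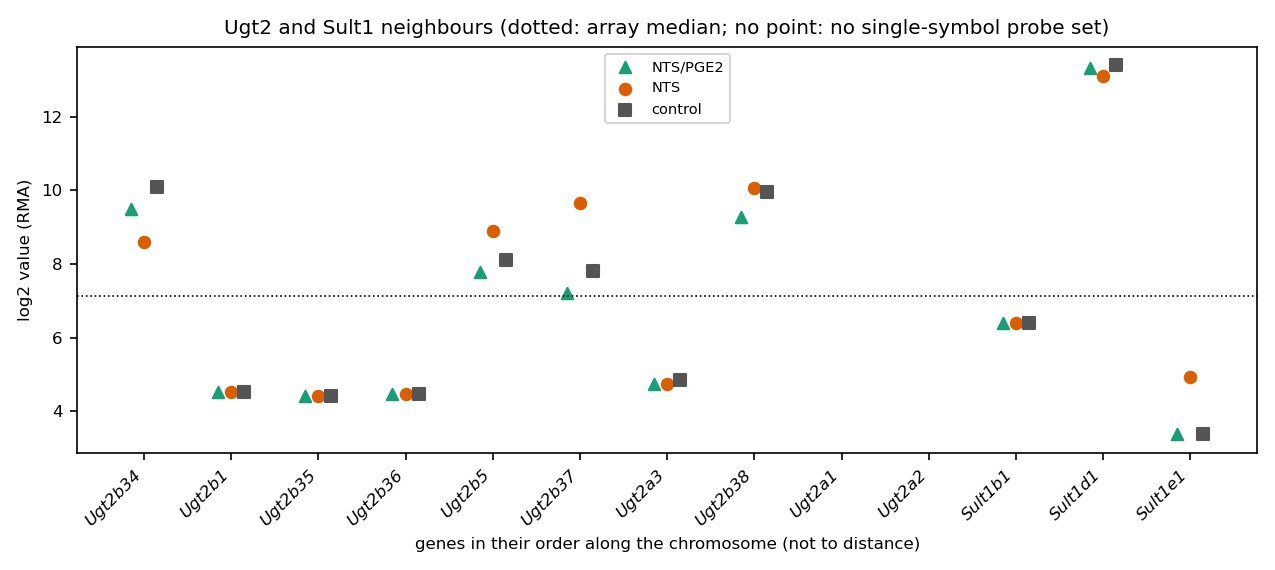
Log2 values (y axis) of the Ugt2 and Sult1 genes of the chromosome 5 run in their gene order (x axis, not to distance), for NTS/PGE2 (triangles), NTS (circles) and control (squares) kidney. Ugt2b34 is lowest in NTS kidney, Ugt2b5 and Ugt2b37 are highest there, and the genes without points had no single-symbol probe set.

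The start regions of these UGT2 genes were compared after their values were seen. The 3 UGT2 genes lower in NTS/PGE2 kidney than in NTS kidney by at least 1.5-fold were picked by those values. They share most of their start regions, and a link between these sequences and the values was not tested. The windows of Ugt2b37 and Ugt2b38 had 91% of 300 positions identical in a global alignment, Ugt2b38 and Ugt2b5 87%, and Ugt2b37 and Ugt2b5 82.3%. The share was 54% for Ugt2b34 and Ugt2b37. With Ugt2b37 it was 65.3% for Ugt2b36 and 59.7% for Ugt2b35. Both are dim genes whose equal values on all 3 arrays say little about their true levels. Ugt2b36 and Ugt2b37 shared a run of 24 bases. Between NTS and control the 3 genes were less alike, with log2 differences of 1.86 for Ugt2b37, 0.79 for Ugt2b5 and 0.12 for Ugt2b38. Capitals mark a run of 62 bases that the 3 windows share and that no other of the 32851 windows held. It begins 68 bases before the start of Ugt2b5, 85 before that of Ugt2b37 and 71 before that of Ugt2b38. Ugt2b34 lacks it. All windows are from RefSeq, on the minus strand of GRCm38.p6 and written 5′ to 3′ on that strand, at chr5:87140291-87140590, chr5:87254739-87255038, chr5:87424154-87424453 and chr5:86906888-86907187:
Ugt2b5: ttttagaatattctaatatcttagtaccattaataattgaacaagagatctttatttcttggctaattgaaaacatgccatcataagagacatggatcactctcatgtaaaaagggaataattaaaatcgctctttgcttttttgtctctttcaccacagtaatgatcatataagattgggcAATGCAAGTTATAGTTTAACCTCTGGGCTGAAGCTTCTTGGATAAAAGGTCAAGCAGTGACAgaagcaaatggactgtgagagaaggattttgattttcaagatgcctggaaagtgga
Ugt2b37: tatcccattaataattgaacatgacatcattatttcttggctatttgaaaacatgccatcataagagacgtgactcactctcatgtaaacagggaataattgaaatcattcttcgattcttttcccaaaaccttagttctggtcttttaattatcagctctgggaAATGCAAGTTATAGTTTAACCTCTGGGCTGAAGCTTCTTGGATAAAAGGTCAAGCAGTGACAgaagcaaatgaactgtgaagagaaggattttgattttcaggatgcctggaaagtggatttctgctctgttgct
Ugt2b38: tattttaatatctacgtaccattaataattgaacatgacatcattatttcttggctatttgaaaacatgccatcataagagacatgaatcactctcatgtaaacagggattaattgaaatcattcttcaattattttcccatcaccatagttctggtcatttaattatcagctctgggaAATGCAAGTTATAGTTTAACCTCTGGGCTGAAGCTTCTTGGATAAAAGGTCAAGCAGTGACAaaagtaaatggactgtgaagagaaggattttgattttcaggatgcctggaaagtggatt
Ugt2b34: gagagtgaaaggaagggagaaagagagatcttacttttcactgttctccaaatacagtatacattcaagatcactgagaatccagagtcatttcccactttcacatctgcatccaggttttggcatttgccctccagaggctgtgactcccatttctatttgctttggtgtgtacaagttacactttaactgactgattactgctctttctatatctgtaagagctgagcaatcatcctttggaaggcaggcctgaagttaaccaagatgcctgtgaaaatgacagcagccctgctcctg

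The windows run 50 bases into the transcripts, so transcripts of these 3 genes are alike at their start as well. A probe set of one may read another (not tested), and the separate values of Ugt2b5, Ugt2b37 and Ugt2b38 are uncertain to that extent. Probe sequences were not used here.

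Of the 16 SULT genes, 4 were at or above the median gene, and none differed 2-fold in any comparison after the filter. Sult1d1, a sulphotransferase of catecholamines and phenols in the mouse, read 13.31 in NTS/PGE2 kidney, 13.11 in NTS kidney and 13.39 in control kidney. Its NTS value was the lowest by a log2 difference of -0.28 from control. Sult1c2 read 10.64, 10.03 and 10.51 and Sult1a1, the main phenol sulphotransferase, 8.68, 8.25 and 9.04 on these arrays. Both were lowest in NTS kidney, with differences from control of -0.48 and -0.79. Sult1e1, the oestrogen sulphotransferase, read 3.38, 4.92 and 3.38; all 3 values lay below the 25th percentile of their arrays, so its log2 difference of 1.54 between NTS and control was not counted. Sult2b1, which sulphates cholesterol, read 6.99, 7.12 and 6.99.

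Enzymes around the conjugation step were read from lists of pathway genes. Of 4 genes that make or reduce glutathione, none differed 2-fold between the NTS and control arrays. The catalytic subunit of glutamate-cysteine ligase, Gclc, read 12.58 in NTS/PGE2 kidney, 12.72 in NTS kidney and 11.99 in control kidney, while the modifier subunit Gclm read 12.29, 11.23 and 12.17. The 2 subunits thus went in opposite directions in NTS kidney, with log2 differences of 0.73 and -0.93 from control. Gclm was at least 2-fold higher in NTS/PGE2 kidney than in NTS kidney, by 1.055, which is 1 of 4 genes beside 4.15% of all genes tested. Of 11 genes of the mercapturate steps, 3 were at least 2-fold lower in NTS kidney, beside 5.42% of all genes tested, and 0 higher, beside 2.70%, with a median of -0.41. Dpep1, the brush border dipeptidase that cleaves cysteinylglycine, read 10.96, 8.37 and 11.23 on the NTS/PGE2, NTS and control arrays.

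The aminopeptidase Anpep and the aminoacylase Acy1 were the other two, with log2 differences of -1.29 and -2.38. All 3 were at least 2-fold higher in NTS/PGE2 kidney than in NTS kidney, beside 4.15% of all genes, and none of the 11 differed 2-fold between NTS/PGE2 and control. The membrane-bound transferase Mgst1 read 10.61 in NTS/PGE2 kidney, 11.94 in NTS kidney and 11.30 in control kidney. Its NTS/PGE2 value was the lowest, by a log2 difference of -1.33 from NTS. Mgst1 was 1 of 3 membrane-bound transferases at least 2-fold lower in that comparison, beside 3.28% of all genes. Mgst3 differed there by -0.01, and Mgst2 had equal values.

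None of the 4 genes listed for UDP-glucuronate supply passed 2-fold in any comparison. The transporter genes Slc35b1 and Slc35d1 differed most, by 0.56 and 0.41 between NTS and control. Between NTS/PGE2 and NTS they differed by -0.38 and -0.45. Ugdh, which oxidises UDP-glucose to UDP-glucuronate, read 11.27 in NTS/PGE2 kidney, 11.00 in NTS kidney and 11.19 in control kidney, and Ugp2, which makes UDP-glucose, read 9.94, 10.00 and 10.09. For PAPS, 2 of 6 genes were at least 2-fold lower in NTS kidney, beside 5.42% of all genes, and 1 higher, beside 2.70%. Papss2, a PAPS synthase, read 12.33, 11.30 and 12.32 on the NTS/PGE2, NTS and control arrays, low in NTS kidney alone. Between NTS/PGE2 and NTS it was the sole gene of the 6 past 2-fold, higher by 1.03, beside 4.15% of all genes. The sulphate transporter Slc26a1 differed by -1.24 between NTS and control, and the PAPS transporter of the Golgi, Slc35b3, by 1.01.

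Other conjugating systems were read in the same way. Among 12 genes of methyl, acetyl and glycine conjugation, 5 were at least 2-fold lower in NTS kidney, beside 5.42% of all genes, and 0 higher, beside 2.70%, with a median of -0.50. They were the histamine methyltransferase Hnmt at -1.88 and the acyl-CoA synthetases Acsm3 at -2.14, Acsm5 at -1.98, Acsm1 at -1.45 and Acsm2 at -1.18. Acsm3 read 5.77 in NTS/PGE2 kidney, 5.68 in NTS kidney and 7.82 in control kidney, and so was low on both treated arrays. In NTS/PGE2 kidney, 4 of the 12 were at least 2-fold higher than in NTS kidney, beside 4.15% of all genes. They were Acsm5 at 2.10, Acsm1 at 1.93, Hnmt at 1.25 and Acsm2 at 1.01. The acetyltransferase Nat2 was the sole one at least 2-fold lower in that comparison, by -1.27, beside 3.28% of all genes. Of 10 conjugate exporters none differed 2-fold between the NTS and control arrays. The exporter Abcc3 read 10.73, 9.16 and 10.02 on the NTS/PGE2, NTS and control arrays, and was the sole gene of that list past 2-fold, beside 4.15% of all genes, higher by a log2 difference of 1.57 in NTS/PGE2 than in NTS. Of 5 genes that remove glucuronide or sulphate groups, none passed 2-fold in any comparison.

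Among 16 measured regulators, 1 was at least 2-fold lower in NTS kidney, a share near the 5.42% of all genes. It was Nfe2l2, the gene of NRF2, which read 11.63 in NTS/PGE2 kidney, 9.52 in NTS kidney and 11.51 in control kidney. Its NTS value was low on that array alone, with log2 differences of -1.99 from control and 2.10 for NTS/PGE2 against NTS. Its inhibitor gene Keap1 read 8.19 on all 3 arrays, and the tubule factor Hnf4a read 12.29, 11.55 and 12.12. NRF2 targets outside the conjugating families went both ways, with 2 of 20 at least 2-fold lower in NTS kidney than in control kidney, 1 higher and a median of 0.11, shares not far from the 5.42% and 2.70% of all genes. Cbr1, a carbonyl reductase, differed by -1.72 and the inducible heme oxygenase Hmox1 by 2.11. Hmox1 was also higher in NTS/PGE2 kidney than in control kidney, by 1.05, 1 of 20 targets beside 0.0607% of all genes. Between NTS/PGE2 and NTS, 2 of 20 were at least 2-fold higher, beside 4.15%, and 1 lower, beside 3.28%. Any negative difference was held by 15 of 20, beside 29.3% of all genes, and a positive one by 4, beside 35.1%. Since 16 of the 20 passed the filter, all genes are a dimmer group than the targets. Of all brighter genes 42.0% had a negative difference and 40.3% a positive one. Values were equal for 1 of 20 and for 7105 of 19938 genes.

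**Figure D4:**
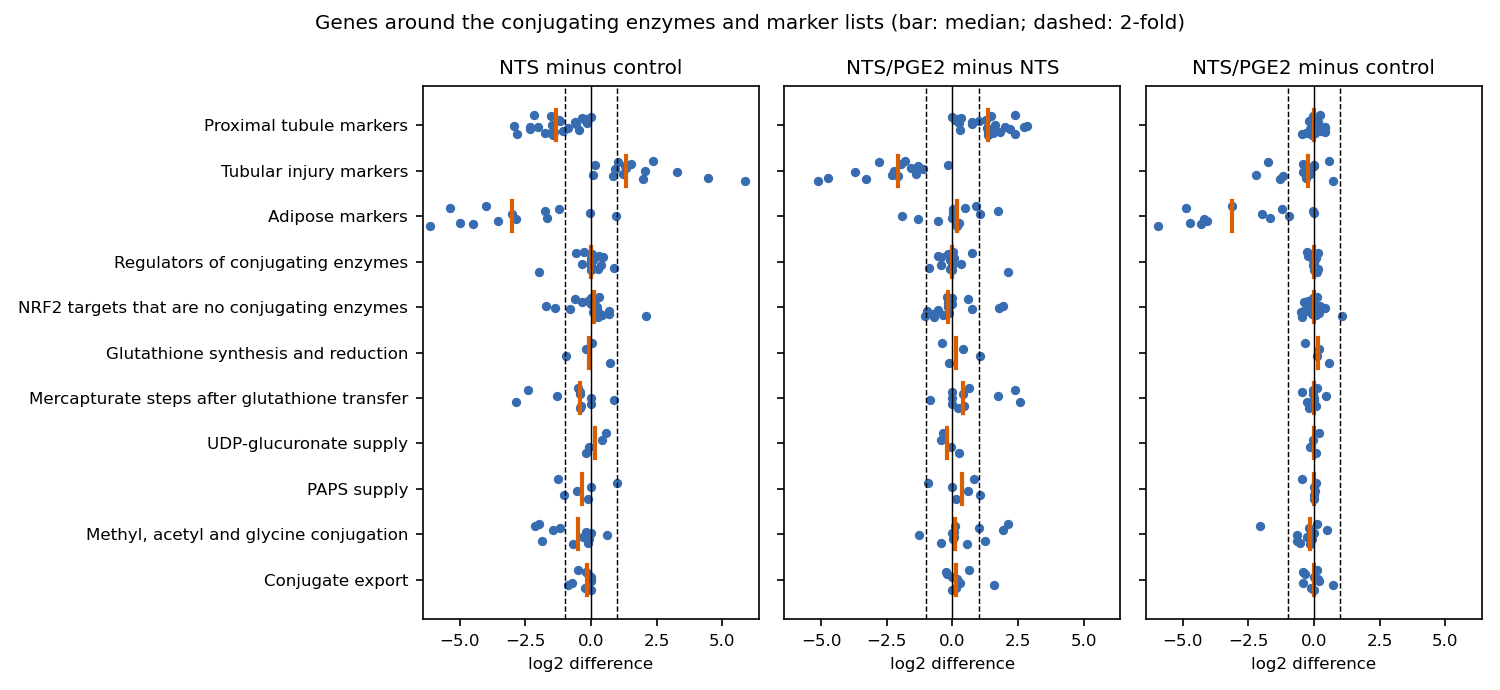
Log2 differences (x axis) of single genes (points) in 11 lists (rows), with the list median as a bar and 2-fold as dashed lines, for NTS minus control, NTS/PGE2 minus NTS and NTS/PGE2 minus control. Proximal tubule markers have medians of -1.32, 1.35 and 0.01, tubular injury markers of 1.35, -2.05 and -0.24, and adipose markers of -3.02, 0.18 and -3.10.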

How the data were processed

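RNA of kidney (250 ng per array) was biotin-labelled and read on Affymetrix Mouse Gene 1.0 ST arrays, as the labels' protocols state. The authors deposited log2 values from RMA in Expression Console, per the submitters' processing notes; their versions were not given in the sources used here. This method equalises the arrays' probe distributions and summarises each probe set by median polish, which can understate small differences. No scanner values were used, so no probe was set against its background.

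Groups came from the labels, with 1 array each. Of 35556 probe sets, 21789 carried 1 gene symbol, 1621 several and 12146 were unnamed here. Probe sets of a gene were averaged. The 47 member probe sets matched a table of GRCm38.p6 by gene identifier, and 0 symbols changed. Brightness groups were split on the mean over all 3 arrays. Work was done in Python 3.11.15 with pandas 2.3.3 and numpy 2.4.6, and the calculation was tested on simulated data. Members, gene lists and limits were chosen with earlier results of these data known. Named genes were the members past 2-fold, the brightest members and those at the limit, and of each pathway list the genes past 2-fold or up to 4 with the largest differences; other members were named with their class. Keap1, Hnf4a, Acsm2, Nat2, Slc34a1 and Umod were chosen after their values were seen. The comparison of UGT2 start regions was added after the values were seen. The planned comparison of protein sequences was not made. Alternatives were other ways of joining probe sets, of scaling, of treating dim values and of setting the limit.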

Additional observations from a re-analysis of the deposited data

How the results depend on the processing

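Counts of members past the limit were recomputed under 8 other settings. Settings that alter only the filter or the fold limit leave each gene's difference as it is. They were not applied to single genes, which gave 60 values for 12 differences, or to summaries of the brighter genes. The 1.5-fold setting was also left out of the median over all members. No direction of a single gene past 2-fold changed: centring and quantile normalisation, the 2 settings that altered the 12 differences of 8 genes, moved them by at most 0.03. Joining of probe sets and the floor left these differences identical by construction, since each gene had 1 bright probe set. Of 99 counts and medians, 57 were identical to those reported and 42 moved, 8 of them by over the probe set SD or, for counts, over 1.5 times. Without the filter on dim values, 2 members in place of 1 passed 2-fold upward in NTS relative to control, the added one being Sult1e1. With the 8 probe sets that carry several member symbols added, 5 in place of 3 were higher for NTS/PGE2 against NTS. In NTS relative to control, 7 in place of 5 were lower. The added ones were the sets with UGT3 symbols, which may read Ugt3a1 and Ugt3a2 again and need not be further genes. At a limit of 1.5-fold, NTS relative to control had 4 higher and 10 lower, NTS/PGE2 relative to NTS had 7 and 5, and NTS/PGE2 relative to control had 1 and 4, which follows from the lower limit. Centring each array on its median or quantile normalisation shifted the median of all genes by at most -0.03. No paired analysis was possible because each group had 1 array. For the same reason no array could be left out, and depth of signal over background is unknown.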

Other observations

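Probe sets that carry several gene symbols were left out of the comparisons, and 12 of them held a GST, UGT or SULT symbol. Of these, 4 sets with alpha-class symbols were bright, with log2 values between 12.22 and 12.63 in NTS/PGE2 kidney, 12.22 and 12.62 in NTS kidney and 12.58 and 12.95 in control kidney. Their differences from control lay between -0.40 and -0.33 in NTS kidney and between -0.37 and -0.32 in NTS/PGE2 kidney, so both treated arrays stood below the control array by about the same amount. The set with 8 UGT1 symbols read 10.97, 10.82 and 11.03 on the NTS/PGE2, NTS and control arrays. Both sets with UGT3 symbols differed by -1.83 and -1.80 for NTS against control, by 2.12 and 2.03 for NTS/PGE2 against NTS and by 0.29 and 0.23 for NTS/PGE2 against control.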
